A study of Mus musculus with 6 samples.

Results

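The 38 genes described here act between late G2 phase and the end of mitosis: the cyclins and kinases of mitotic entry, Mki67 and Top2a on the chromosomes, the spindle and its kinetochores, the spindle checkpoint, the chromosomal passenger complex, the anaphase-promoting complex (APC/C) with its helpers, and cytokinesis. A list of 12 other mitotic kinesins was kept apart as a comparison, while Cenpe, a kinetochore protein that is itself a kinesin, is among the 38. Members were chosen by name, with earlier results of these data known. A member was measured where an array probe set carried exactly 1 gene symbol equal to it. Of the 38, 37 had such a probe set, out of 18193 genes in all, and Ccnb1 was not analysed here. Each gene stands for its brightest probe set over the 6 arrays.

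Messenger RNA was measured on 6 Affymetrix Mouse430_2 arrays, 1 per culture of primary dermal fibroblasts, which are cells that grow out of a piece of skin. The treated group, 3 arrays, had 100 nM synthetic Et1 (endothelin 1, a secreted peptide whose receptors couple to G proteins) for 24 hours. The control group, 3 arrays, was cultured in the same way with nothing added. All cells came from the dermis of B6 pups of mixed sex aged 0 to 2 days, at passage 6 in DMEM with serum. The design text instead gives pups of up to 3 days and a split into treated and control cultures by passage 5. Each array is labelled a biological replicate, and no animal is named, so p-values measure only the spread between these cultures, which may be partly technical.

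Cells enter mitosis when cyclin B and its kinase Cdk1 become active, a switch that Cdc25 phosphatases, Plk1 and the Aurora kinases help to throw. Chromosomes then attach to the spindle through kinetochores. The spindle checkpoint holds back Cdc20, the activator of the APC/C, until all are attached. The APC/C, a ubiquitin ligase, then marks securin and the cyclins for destruction, the sister chromatids part, and the cell is pinched apart. Transcripts of most of these genes are made mainly in G2 and M, so in a culture their amount goes with the share of cycling cells.

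Many promoters of this gene class carry a cell cycle homology region, a short element near the start of transcription that is bound by the MuvB protein complex, which represses these genes in resting cells as part of DREAM and activates them in G2 together with B-Myb and Foxm1. Next to it often lie CCAAT boxes, bound by NF-Y. Promoter windows of 300 bases (250 before and 50 after the annotated start) were taken from RefSeq, build GRCm38.p6. They were searched on both strands. The first form of the homology region searched for was TTTGAA, which reads TTCAAA on the other strand. The second form was TTCGAA, which reads the same on both strands. The box was searched for as CCAAT, which reads ATTGG on the other strand. Of the 37 measured genes, 31 had a window. The windows printed here show where the motifs lie. At each step the gene with a called probe set came first (Cdc20, Prc1) and otherwise the gene with the smallest p, with the 2 smallest for entry (Cks2, Plk1). Each runs 5′ to 3′ on the gene's strand, and capitals mark the matches.
Cks2: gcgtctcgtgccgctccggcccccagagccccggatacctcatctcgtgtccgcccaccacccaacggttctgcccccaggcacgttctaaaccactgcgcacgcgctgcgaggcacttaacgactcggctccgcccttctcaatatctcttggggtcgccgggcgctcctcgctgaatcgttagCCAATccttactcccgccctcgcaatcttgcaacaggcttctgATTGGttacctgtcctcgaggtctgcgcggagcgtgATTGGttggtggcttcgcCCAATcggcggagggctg
Plk1: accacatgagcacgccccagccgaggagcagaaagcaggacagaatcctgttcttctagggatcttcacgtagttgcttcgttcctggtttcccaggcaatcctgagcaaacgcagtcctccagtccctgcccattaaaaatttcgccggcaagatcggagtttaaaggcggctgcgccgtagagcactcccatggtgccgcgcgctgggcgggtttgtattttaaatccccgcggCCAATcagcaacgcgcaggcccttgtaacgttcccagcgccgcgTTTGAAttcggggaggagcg
Mki67: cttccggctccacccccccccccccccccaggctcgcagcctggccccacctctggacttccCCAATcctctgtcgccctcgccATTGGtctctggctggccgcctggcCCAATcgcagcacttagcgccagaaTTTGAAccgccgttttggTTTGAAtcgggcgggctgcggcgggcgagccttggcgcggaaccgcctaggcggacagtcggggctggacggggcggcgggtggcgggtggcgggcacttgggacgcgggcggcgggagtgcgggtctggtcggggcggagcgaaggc
Hmmr: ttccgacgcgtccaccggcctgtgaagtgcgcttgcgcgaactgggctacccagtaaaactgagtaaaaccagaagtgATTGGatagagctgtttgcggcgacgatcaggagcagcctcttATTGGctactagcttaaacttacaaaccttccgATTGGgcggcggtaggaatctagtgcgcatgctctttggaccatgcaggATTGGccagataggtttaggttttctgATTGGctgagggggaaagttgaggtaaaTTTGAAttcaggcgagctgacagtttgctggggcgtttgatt
Bub1: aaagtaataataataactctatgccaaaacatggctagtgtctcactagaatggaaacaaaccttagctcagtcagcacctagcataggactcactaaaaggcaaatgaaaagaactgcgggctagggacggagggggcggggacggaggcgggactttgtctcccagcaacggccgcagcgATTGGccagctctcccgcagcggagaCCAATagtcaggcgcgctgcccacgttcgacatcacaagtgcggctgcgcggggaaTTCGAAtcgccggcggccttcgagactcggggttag
Cdc20: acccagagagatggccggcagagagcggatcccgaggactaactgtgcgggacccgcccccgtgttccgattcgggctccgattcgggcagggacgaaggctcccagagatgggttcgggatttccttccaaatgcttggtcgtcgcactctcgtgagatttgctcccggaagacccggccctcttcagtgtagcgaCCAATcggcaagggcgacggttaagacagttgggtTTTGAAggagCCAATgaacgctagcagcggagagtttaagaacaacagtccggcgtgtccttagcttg
Prc1: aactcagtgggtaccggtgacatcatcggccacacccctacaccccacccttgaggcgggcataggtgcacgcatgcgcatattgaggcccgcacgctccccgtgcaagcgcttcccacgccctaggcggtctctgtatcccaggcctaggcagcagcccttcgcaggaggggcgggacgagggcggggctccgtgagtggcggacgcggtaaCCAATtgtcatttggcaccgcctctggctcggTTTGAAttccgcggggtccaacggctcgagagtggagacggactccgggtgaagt
The windows lie at chr13:51644982-51645281 on the plus strand, chr7:122159185-122159484 on the plus strand, chr7:135716330-135716629 on the minus strand, chr11:40733388-40733687 on the minus strand, chr2:127831810-127832109 on the minus strand, chr4:118437294-118437593 on the minus strand and, as the first of 2 listed for that gene, chr7:80294201-80294500 on the plus strand. In the passenger complex the gene with the smallest p, Birc5, had neither motif in its window, and none was printed for that step.

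A cell cycle homology match lay in the windows of 22 of the 31 genes, or 71%, against 19.4% of the windows of all 27025 genes in the table (the first window listed for each). In each of the 22 a match started between 100 bases before and 50 bases after the annotated start, where 8.68% of all windows had one. The position limit was chosen after the matches were seen. The match nearest the downstream end started between position -98, in Mki67, and position 41, in Bub1b, with a median of 8. CCAAT was found in 24 of the 31, or 77.4%, against 37.9% of all windows. Both motifs were found in 20, or 64.5%, against 7.7%, and the matches of the 2 motifs overlapped in 1 gene. The windows of the 9 genes without a cell cycle homology match were those of Cks2, Nusap1, Nek2, Cenpe, Nuf2, Mad2l1, Birc5, Fzr1 and Pttg1. Base composition differed, with a median GC content of 58.7% in the members' windows and 52.7% over all windows. Windows of S phase genes, with a median GC content of 60.0%, held the element in 8 of 37 cases, or 21.6%, and those of mitotic kinesins, at 60.7% GC, in 10 of 11, or 90.9%. A match is a description of letters, not of a bound site.

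**Figure D1:**
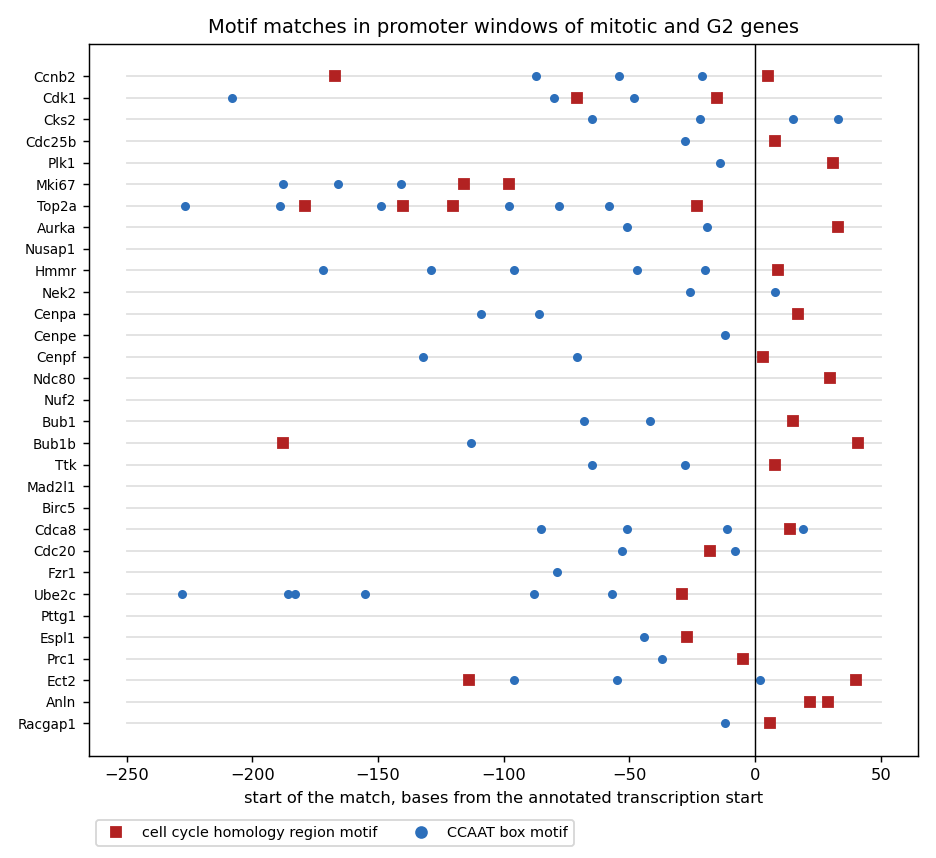
Start of each match to the cell cycle homology region motif (red squares) and the CCAAT box motif (blue circles), in bases from the annotated transcription start, in the promoter windows of 31 mitotic and G2 genes (rows, grey lines spanning 250 bases before to 50 after the start). In 22 of the 31 windows a red square lies between 100 bases before and 50 after the start, and the windows of Nusap1, Nuf2, Mad2l1, Birc5 and Pttg1 hold neither motif.

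The study asked, by its title, which transcripts change in dermal fibroblasts on exposure to the peptide. Each of the 37 genes had a lower mean in Et1 cultures, where 44.3% of the 11666 tested genes did. As the members were chosen with earlier results of these data known, the counts given here are descriptions. The median log2 fold change, Et1 over control, was -0.60, or 65.8% of control, against 0.05 over all tested genes. In total RNA from a culture, fewer cells in G2 and M and less of a transcript per cell cannot be told apart. Cdc20 passed limma's threshold of an adjusted p of 0.05 over all 22519 tested probe sets, so 1 of 37 genes was called lower (2.70%) and 0 higher, where 0.274% of all tested genes were called lower. At an unadjusted limma p under 0.05, 26 of 37 were lower and 0 higher, where 6.53% of all genes were lower and 6.93% higher. All 3 Et1 signals lay below all 3 control signals for 21 of 37, where 8.49% of all genes showed this. All 37 passed the filter on low signals, a mean scaled signal over the 6 arrays of 41.0.

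**Figure D2:**
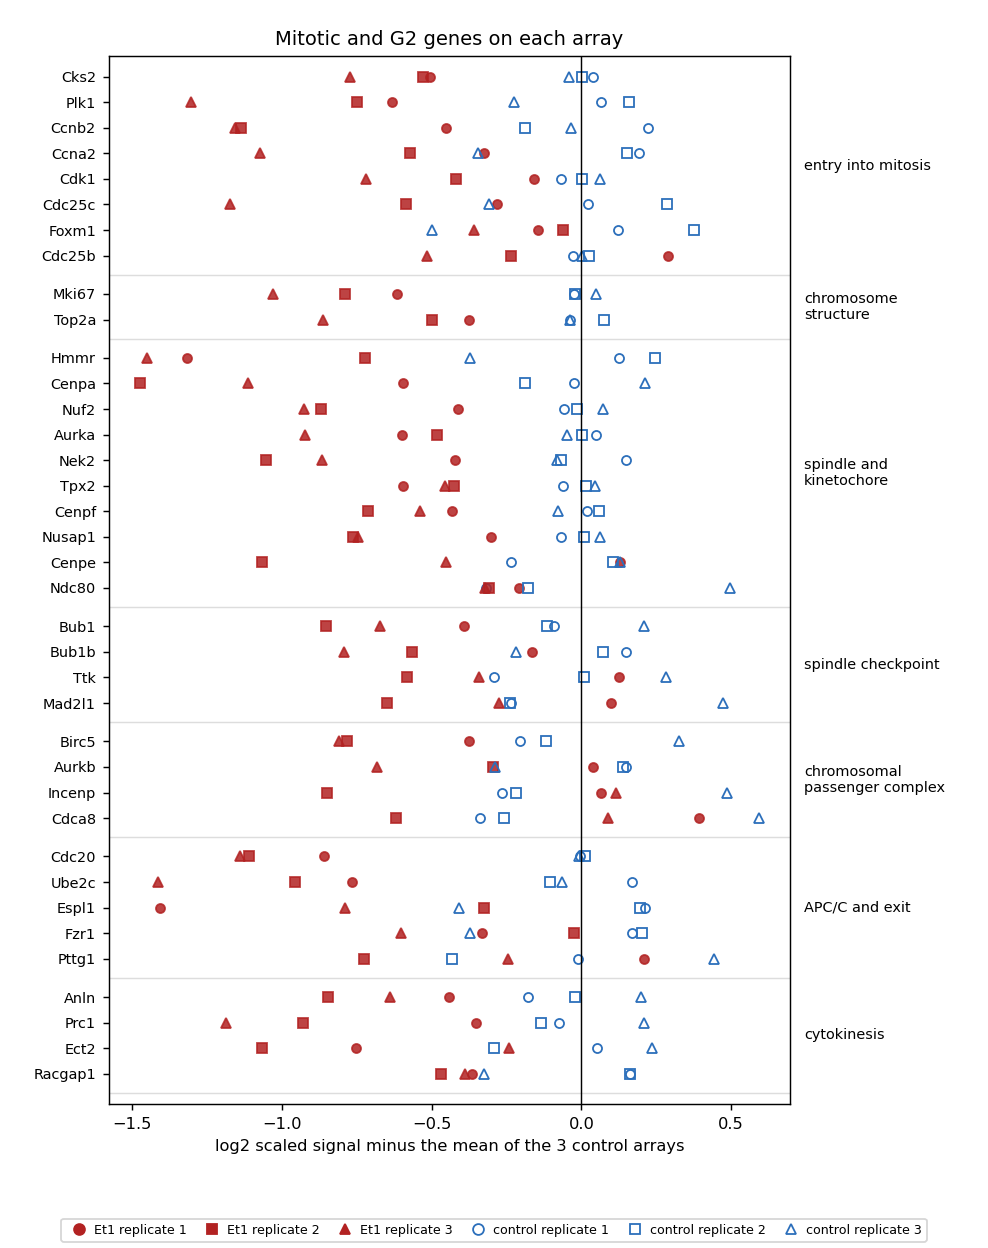
Log2 scaled signal of each gene's brightest probe set on each array, minus the mean of the 3 control arrays (x axis), for 37 mitotic and G2 genes in rows, grouped by step and ordered by p within a step. Filled red symbols are Et1 arrays and open blue symbols control arrays, with the shape giving the replicate. In 21 genes all red symbols lie left of all blue ones, and in Cdca8, Incenp and Pttg1 the 2 colours mix.

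The Et1 arrays differed in how far they lay below control. Over the 37 genes, the median level relative to the mean of the control arrays was 77.1% on Et1 replicate 1, 61.0% on Et1 replicate 2 and 59.6% on Et1 replicate 3, against 99.1%, 100.2% and 100.2% on control replicates 1, 2 and 3. The lowest of the 6 signals fell on Et1 replicate 3 for 20 genes, on Et1 replicate 2 for 14, on Et1 replicate 1 for 2 and on a control array for 1, Foxm1. The highest fell on a control array for 36 genes, 18 of them on control replicate 3, and on Et1 replicate 1 for Cdc25b. Et1 replicate 1 also had the lowest deposited 2% trimmed mean, 91.7, where the others ran from 129 to 179. All signals given here were scaled to a common trimmed mean of 139, and signals are listed in the order of replicates 1, 2 and 3.

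Among the genes of mitotic entry, all 8 measured had lower means after Et1 and their median log2 fold change was -0.63, but 0 passed limma's adjusted threshold (6 lower and 0 higher at an unadjusted p under 0.05). Plk1, the polo kinase that activates Cdc25 and matures the centrosomes, read 316, 292 and 199 on the Et1 arrays, against 512, 548 and 419 on the control arrays. Ccnb2, a B-type cyclin, had 337, 210.2 and 207 in Et1 cultures, against 539, 405 and 450.5 in control cultures. In both genes the highest Et1 signal lay below the lowest control signal, at log2 fold changes of -0.89 (SE 0.21) and -0.91 (SE 0.22) with limma adjusted p = 0.134 and 0.144.

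Cks2, a small subunit that binds cyclin-dependent kinases, read 1019, 1003 and 846 on Et1 arrays, against 1485, 1450.1 and 1406 on control arrays, again with no overlap (log2 fold change -0.60, SE 0.13, limma adjusted p = 0.12). In the other tested Cks2 probe set, at -0.29 (SE 0.26), the groups overlapped. Cdk1, the mitotic kinase itself, stood at 1348, 1125 and 914 in Et1 cultures, against 1436, 1508 and 1572 in control cultures. That is 74.1% of control, a smaller difference than for its cyclin partner Ccnb2 at 53.1%; the difference between these genes was not tested. Ccna2, the A-type cyclin of S and G2, had a log2 fold change of -0.66 and overlapped between the groups, since Et1 replicate 1 at 812 lay above control replicate 3 at 802.

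The Cdc25 phosphatases remove inhibitory phosphates from Cdk1. Cdc25c read 112, 90.2 and 60.1 on Et1 arrays, against 138, 165 and 109.6 on control arrays (log2 fold change -0.68, SE 0.27), and its other probe set stood at -0.33 (SE 0.31); the groups overlapped in both. Cdc25b read 154, 107 and 88.1 in Et1 cultures, against 124, 128 and 126 in control cultures, and Et1 replicate 1 was the highest of the 6. Foxm1, the transcription factor that drives many of these genes, had 202, 215 and 175 on Et1 arrays, against 244, 291 and 158 on control arrays, and its groups overlapped. The log2 fold changes of Cdc25b and Foxm1 were -0.15 (SE 0.22) and -0.19 (SE 0.24), each smaller than its SE. They turned to 0.03 without Et1 replicate 3 for Cdc25b and to 0.00031 without control replicate 2 for Foxm1.

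Both genes of chromosome structure had lower levels on every Et1 array. Mki67, which coats mitotic chromosomes and marks cycling cells, read 347, 308 and 260.3 in Et1 cultures, against 522, 523 and 549.8 in control cultures (log2 fold change -0.81, SE 0.16, limma adjusted p = 0.0871). Top2a, the topoisomerase that untangles sister DNA, read 842, 773 and 599.8 in Et1 cultures, against 1062, 1151 and 1064 in control cultures (-0.58, SE 0.16). The control arrays of both genes lay close together, and the Et1 arrays spread more widely below them.

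For the spindle and kinetochore, all 10 genes had lower means, 8 of them with no overlap between the groups, and the median log2 fold change was -0.64. No gene of this step passed limma's adjusted threshold, and 8 were lower and 0 higher at an unadjusted p under 0.05. Hmmr, a spindle protein that helps Tpx2 to focus microtubules, read 192, 291 and 175 on Et1 arrays, against 523, 568 and 370.4 on control arrays. Its log2 fold change of -1.16 (SE 0.24, limma adjusted p = 0.102) was the largest in size among the 37 brightest probe sets. Cenpa, the histone H3 variant that marks centromeres, had 393, 214 and 274 in Et1 cultures, against 583, 521 and 688 in control cultures (-1.06, SE 0.23, limma adjusted p = 0.117). In both genes every Et1 signal was below every control signal.

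The kinases and adaptors of the spindle had log2 fold changes of smaller size than Hmmr and Cenpa, without a test of that difference. Aurka, the Aurora kinase of the centrosome, read 358, 388 and 286 on Et1 arrays, against 559.9, 542 and 524 on control arrays. Its activator Tpx2 read 412, 464 and 454 on Et1 arrays, against 596, 629 and 643 on control arrays. Nek2, a kinase that loosens the link between centrosomes, and Nusap1, which bundles microtubules, had log2 fold changes of -0.78 (SE 0.20) and -0.60 (SE 0.17). In the brightest probe sets the groups overlapped for none of these 4 genes. Other tested probe sets of Tpx2 stood at -0.62, -0.20 and -0.05, and those of Nek2 at -0.38 and -0.03. Of these, only the ones at -0.62 and -0.38 had no overlap.

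Nuf2 and Ndc80 are subunits of the Ndc80 complex, which binds microtubules at the outer kinetochore. Nuf2 read 325, 236 and 227 in Et1 cultures, against 414, 428 and 454 in control cultures, with no overlap. Ndc80 read 119, 111 and 109.8 in Et1 cultures, against 110.2, 121 and 193 in control cultures, where control replicate 1 lay at the Et1 level and control replicate 3 far above. Cenpf, a kinetochore protein that accumulates in G2, had a log2 fold change of -0.56 (SE 0.16) with no overlap. Cenpe, a kinetochore motor, had -0.46 (SE 0.29), with Et1 replicate 1 at the level of the highest control array, 239.8 in both.

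The 4 spindle checkpoint genes had lower means with a median log2 fold change of -0.39, 0 passed limma's adjusted threshold, and 2, Bub1 and Bub1b, were lower at an unadjusted p under 0.05. Bub1, a kinase that recruits checkpoint proteins to kinetochores, read 299.7, 218 and 247 on Et1 arrays, against 369, 363 and 454 on control arrays, with no overlap (log2 fold change -0.64, SE 0.18, limma adjusted p = 0.205). Bub1b, part of the complex that restrains Cdc20, read 263, 199 and 170.5 in Et1 cultures, against 327, 310.2 and 254 in control cultures. Mad2l1, which binds Cdc20, stood at 896, 534 and 692 in Et1 cultures, against 710.4, 709 and 1162 in control cultures, and Ttk, the kinase that starts the checkpoint, at -0.27 (SE 0.23) on the log2 scale. In Mad2l1 and Ttk the groups overlapped: Et1 replicate 1 lay above 2 of the 3 control arrays.

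The chromosomal passenger complex had the smallest median difference of the 7 steps, -0.27 over 4 genes, with 0 past limma's adjusted threshold and 1, Birc5, lower at an unadjusted p under 0.05. Birc5, or survivin, which brings the complex to centromeres, read 706, 533 and 523 on Et1 arrays, against 794, 843 and 1146 on control arrays, with no overlap (log2 fold change -0.65, SE 0.19, limma adjusted p = 0.227). Aurkb, the kinase of the complex, had a log2 fold change of -0.31 (SE 0.22). Incenp, its scaffold, read 515, 274 and 533 on Et1 arrays, against 409.5, 423 and 689 on control arrays, and Cdca8, or borealin, read 577, 286 and 467 on Et1 arrays, against 347, 367 and 663 on control arrays. In these 2 genes control replicate 3 was the highest array and Et1 replicate 2 the lowest, while Et1 replicates 1 and 3 lay above control replicates 1 and 2. The log2 fold change of Incenp, -0.22, turned to 0.09 without Et1 replicate 2 and 0.02 without control replicate 3. That of Cdca8, -0.04, turned to 0.24 and 0.25 in the same fits. The other tested Incenp probe sets stood at -0.35 (SE 0.22) and -0.53 (SE 0.33), with overlap between the groups in both. Those of Cdca8 stood at -0.53 (SE 0.15) and -0.62 (SE 0.15), with no overlap in either. Within the spike-in sets described below, the median of this step was -0.52 in the low and -0.37 in the high set.

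At the APC/C and mitotic exit, Cdc20 fell and Ube2c came closest after it. Cdc20, which activates the APC/C for anaphase, read 887, 747 and 731 on Et1 arrays, against 1605, 1622 and 1603 on control arrays (log2 fold change -1.04, SE 0.14, limma adjusted p = 0.0304). That is 48.8% of control. The 3 control signals lay close together and far above every Et1 signal. The call was lost when any 1 array other than control replicate 3 was left out, with limma adjusted p = 0.0519 without Et1 replicate 2 and 0.0954 to 0.22 without each of the other 4. This probe set ends in _x_at, a suffix for probes that can read other transcripts, and without limma's intensity trend its adjusted p was 0.104. Ube2c, a ubiquitin-conjugating enzyme that works with the APC/C, read 868, 761 and 555 in Et1 cultures, against 1659, 1373 and 1410.2 in control cultures (-1.04, SE 0.19, limma adjusted p = 0.0701).

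The other regulators of exit overlapped between the groups in their brightest probe sets. Espl1, or separase, which cuts cohesin, read 55.9, 118 and 85.6 on Et1 arrays, against 172, 169.8 and 111 on control arrays, with Et1 replicate 2 above control replicate 3. Pttg1, or securin, which holds separase back, read 1432, 750.0 and 1046 in Et1 cultures, against 1228, 919 and 1684 in control cultures (-0.25, SE 0.28). Its other tested probe sets stood at -0.33 (SE 0.15), with no overlap, and at 0.14 (SE 0.41), with overlap. Fzr1, or Cdh1, the APC/C activator of late mitosis and G1, read 241, 299 and 199.6 in Et1 cultures, against 341, 349 and 234 in control cultures (-0.32, SE 0.22). Espl1 had a log2 fold change of -0.84 (SE 0.30), or -0.57 where 50 was added to all signals.

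Cytokinesis genes had lower means as well: all 4 had an unadjusted limma p under 0.05, the median log2 fold change was -0.66, and 0 passed the adjusted threshold in the brightest probe set. Anln, or anillin, which links the contractile ring to the membrane, read 1060.3, 801 and 924 on Et1 arrays, against 1273, 1417 and 1653 on control arrays (-0.64, SE 0.16, limma adjusted p = 0.157). Prc1, which bundles the microtubules of the central spindle, read 583, 391 and 326 in Et1 cultures, against 707, 677 and 859 in control cultures (-0.82, SE 0.23). Neither overlapped between the groups. Racgap1, the GTPase-activating subunit of centralspindlin, had no overlap either, at 420.1, 392 and 414 on Et1 arrays, against 606, 606 and 433 on control arrays. Ect2, the exchange factor that switches on RhoA at the furrow, had a log2 fold change of -0.69 (SE 0.24), with Et1 replicate 3 at 451 above control replicate 2 at 435.

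Most of these genes had more than 1 probe set, which reads the transcript with separate oligonucleotides. The 37 genes had 81 probe sets, 69 of which passed the signal filter, and 65 of the 69 had lower means in Et1 cultures, where 45.9% of all tested probe sets did. Apart from the brightest, 32 were tested and 28 had lower means. In 15 all Et1 signals lay below all control signals, where 8.11% of all tested probe sets showed this. By limma, 2 were called lower and 0 higher, where 0.249% of all tested probe sets were called lower and 0.0977% higher. Of the 32, 2 passed the filter only through the control arrays, 1 each of Cdc20 and Bub1, and 2 only through the Et1 arrays, 1 each of Hmmr and Bub1b; these had to differ in that direction. The first of the 2 called probe sets belonged to Prc1, at 311, 309.9 and 319 on Et1 arrays, against 605, 592 and 654 on control arrays (log2 fold change -0.98, SE 0.14, limma adjusted p = 0.0355). Without an array that call held only where control replicate 3 was left out (limma adjusted p = 0.0400), and the adjusted p was 0.0547 to 0.22 without each of the other 5.

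The second called probe set was another of Cdc20, at 28.8, 26.0 and 24.8 on Et1 arrays, against 137, 175 and 146 on control arrays (log2 fold change -2.52, SE 0.23, limma adjusted p = 0.00914). Its Et1 signals lay below the filter of 41.0, so it passed through the control arrays alone, and its log2 fold change was -1.40 where 50 was added to all signals. It lost its call without control replicate 1 (adjusted p = 0.0757) or control replicate 2 (0.107). The remaining Cdc20 probe set stood at -0.73 (SE 0.16, limma adjusted p = 0.12). Its Et1 signals also lay below its control signals.

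Probe sets of other genes differed too. Cdca8, whose brightest probe set was near 0, had log2 fold changes of -0.53 (SE 0.15) and -0.62 (SE 0.15) in its 2 others, both with every Et1 signal below every control signal. The first of these read 344, 331 and 318 on Et1 arrays, against 437, 462 and 539 on control arrays. The brightest Cdca8 probe set ends in _s_at, a suffix Affymetrix gives to probe sets that can read more than 1 transcript. Of the 37 brightest probe sets, 9 end in _s_at or _x_at, among them that of Cks2. Hmmr had 4 of its 5 tested probe sets between -1.16 and -0.82, and the dimmest, which passed the filter only through the Et1 arrays, at 0.34 (SE 0.33). Foxm1, at -0.19 in its brightest probe set, had -0.88 (SE 0.52) and -0.64 (SE 0.35) in its other tested ones, whose groups overlapped as well.

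In all, 4 tested probe sets had higher means in Et1 cultures, 1 each of Hmmr, Cenpf, Bub1b and Pttg1. That of Bub1b read 80.8, 52.6 and 83.1 on Et1 arrays, against 39.3, 42.1 and 41.2 on control arrays (0.79, SE 0.28, limma adjusted p = 0.303). Its control mean of 40.9 lay under the filter, so it was tested only through the Et1 arrays, where it was higher. The 2 other Bub1b probe sets were at -0.51 and -1.06. Another 12 probe sets lay below the filter, 4 of them with lower means. Where the log2 signals of all probe sets of a gene were averaged, Cenpa and Racgap1 stood at 0.05 and 0.16, above 0, since their dimmest probe sets, below the filter, had higher means in Et1 cultures.

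**Figure D3:**
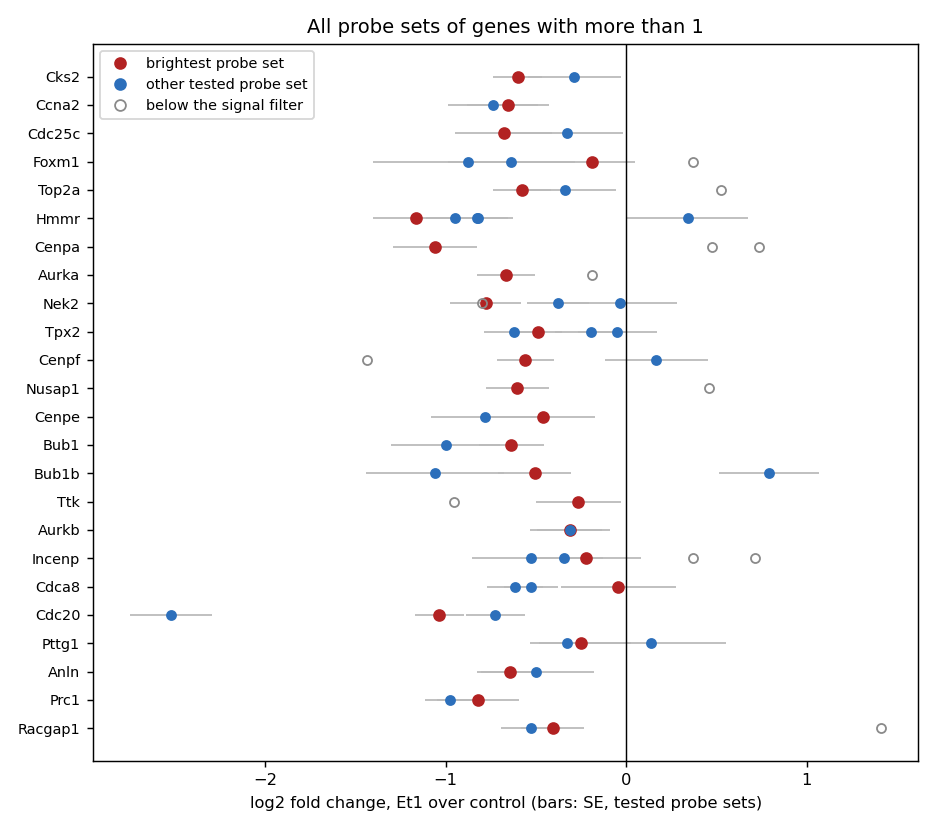
Log2 fold change, Et1 over control, of every probe set of the 24 genes with more than 1 (rows), with the brightest in red, other tested probe sets in blue and those below the signal filter as open grey circles. Bars are the SE of tested probe sets. Most filled points lie left of 0; the blue points right of 0 belong to Hmmr, Cenpf, Bub1b and Pttg1, and the point near -2.52 to Cdc20.

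The arrays split by the signal of spiked-in control transcripts, in a way that crossed the groups. The mean log2 signal of 27 control probe sets for Bacillus transcripts was 3.57 on Et1 replicate 2 and 3.46 and 3.45 on control replicates 1 and 2 (the low set). It was 5.43 and 4.75 on Et1 replicates 1 and 3 and 5.64 on control replicate 3 (the high set). The experiment files give the same station and scan entries for all 6 arrays and show no batches. What split the arrays was not tested. Fits that include the spike-in set are given below. Within the low set all 37 genes had lower values in Et1 and the median log2 fold change was -0.68. Within the high set 36 had lower values, the median was -0.58, and Foxm1 stood at 0.25. These values within sets rest on 3 arrays each and have no test.

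Within both sets the passenger and checkpoint genes were lower in Et1, though Aurkb was near 0 in the high set (-0.44 in the low and -0.03 in the high set). Cdca8, at -0.04 over all arrays, stood at -0.32 in the low and -0.35 in the high set, and Incenp at -0.61 and -0.39. Pttg1 stood at -0.50 and -0.46, and Mad2l1 at -0.41 and -0.56. Cdc20 stood at -1.11 and -0.99, and Ube2c at -0.99 and -1.02. Ndc80 stood at -0.06 in the low and -0.76 in the high set, and the difference was not tested.

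In a fit that held the spike-in set as a block, limma called 19 of the 37 genes lower (51.4%) and 0 higher, where 2.72% of all tested genes were called lower and 1.75% higher. The 19 were 3 of 8 entry genes (Cks2, Plk1 and Ccnb2), Mki67, 7 of 10 spindle and kinetochore genes, Bub1, Birc5 and Incenp, Cdc20 and Ube2c, and 3 of 4 cytokinesis genes. In that fit the log2 fold change of Cdc20 was -1.05, with a limma adjusted p of 0.00198. Hmmr stood at -0.96 (adjusted p = 0.00308), Cenpa at -1.22 (0.00381) and Anln at -0.74 (0.00605), all by limma. The count depended on single arrays. Leaving out Et1 replicate 1 gave 28 and Et1 replicate 3 gave 16, and leaving out control replicate 1 or 2 gave 8. Et1 replicate 2 and control replicate 3 were not left out in this fit, as each is the only array of its group in its set. Calls over all 22519 tested probe sets moved too. With all arrays, 556 probe sets were called lower. The number was 980 without Et1 replicate 1 and 501 without Et1 replicate 3. It was 280 without control replicate 1 and 287 without control replicate 2. Between the sets themselves, high minus low with the group in the fit, 7 of 37 genes passed (18.9%), close to the 17.3% of all tested genes. They were Cdca8 (0.88), Incenp (0.83), Pttg1 (0.69), Mad2l1 (0.64), Hmmr (-0.61), Espl1 (-0.69) and Fzr1 (-0.50).

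**Figure D4:**
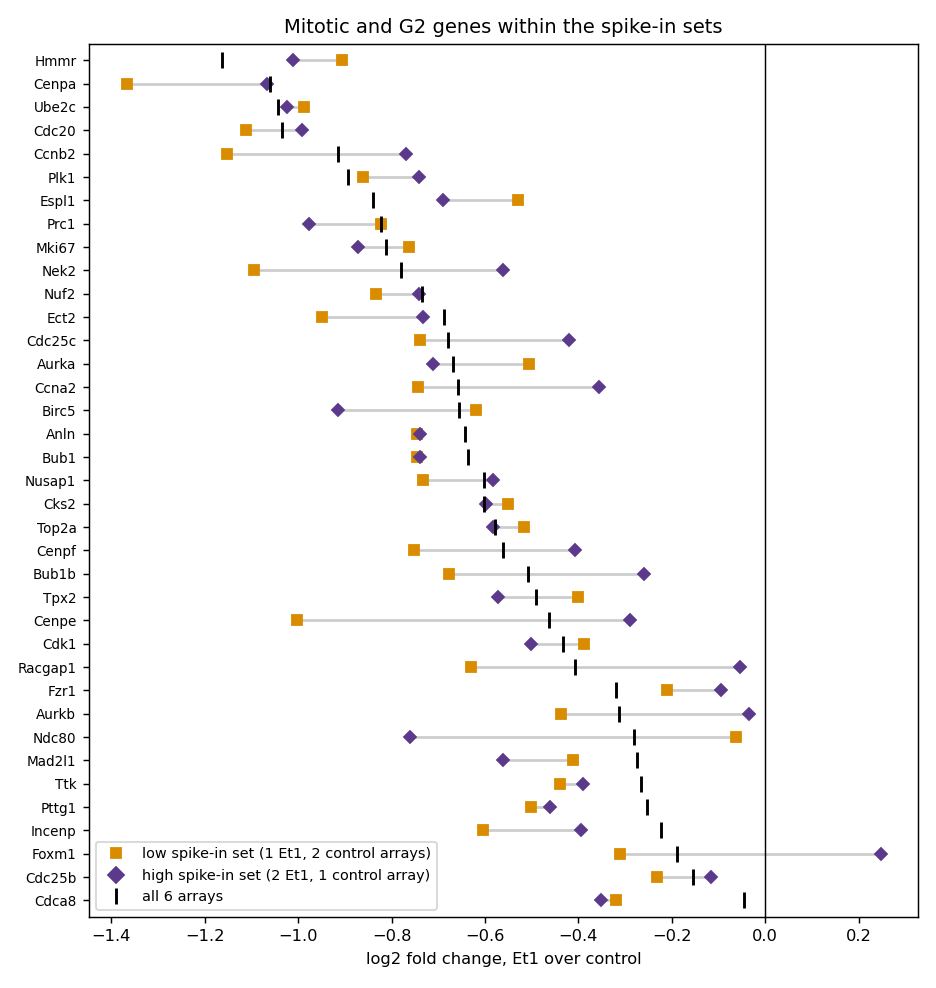
Log2 fold change, Et1 over control, of 37 mitotic and G2 genes (rows, ordered by the value over all 6 arrays, black ticks) within the low spike-in set (orange squares, 1 Et1 and 2 control arrays) and the high spike-in set (purple diamonds, 2 Et1 and 1 control array). All squares and all diamonds but that of Foxm1 lie left of 0.

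Other genes of the cell cycle were read from lists, each gene by its brightest probe set. Of 12 mitotic kinesins, 11 had lower means, with a median of -0.57; of 10 tested, 0 passed limma's adjusted threshold, and 5 were lower and 0 higher at an unadjusted p under 0.05. Kif4, a motor of chromosome arms and the central spindle, averaged 154 ± 17.9 on Et1 arrays and 319 ± 65.5 on control arrays (SD, n = 3 each; log2 fold change -1.04). Kif20a and Kif23, both needed for cytokinesis, stood at -0.70 and -0.67, and Kif2c, which takes microtubules apart at kinetochores, at -0.58.

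Among 44 other mitotic genes, 34 had lower and 10 higher means, with a median of -0.29. Of the 43 tested, 0 passed the adjusted threshold of limma, and 12 were lower and 0 higher at an unadjusted p under 0.05. Ckap2, a spindle microtubule protein, read 379, 414 and 349.6 on Et1 arrays, against 686, 662 and 626 on control arrays (-0.79, SE 0.14). Cdca3, which promotes mitotic entry, stood at -0.88, Ska1 of the kinetochore at -0.92 and Tacc3 of the spindle at -0.75. With the spike-in block limma called 6 kinesins and 7 of these other genes lower, and 0 higher.

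Lists of the machinery around these genes had medians near 0. The 15 other APC/C subunits and regulators had a median of 0.05, with 5 lower and 10 higher means and 0 of either direction at an unadjusted limma p under 0.05. Anapc10 and Cdc16 stood at 0.30 and 0.29, and Cdc27 and Anapc7 at -0.22 and 0.18. The 14 G2 brakes and mitotic phosphatase regulators had a median of 0.09 and 0 calls by limma, with 1 lower and 0 higher at an unadjusted p under 0.05. Bora, a cofactor for Aurka in activating Plk1, stood at -0.56, the Cdk1 inhibitor Wee1 at -0.42, the kinase Lats2 at 0.53 and the phosphatase inhibitor Arpp19 at 0.28.

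Known regulators of cell cycle genes were also measured, among them MuvB and NF-Y subunits. Of 22 genes of DREAM, MuvB, the E2F and Rb families and NF-Y, 11 had lower and 11 higher means, with a median of -0.02. Limma called 0, with 1 lower, Nfyc, and 1 higher, Lin37, at an unadjusted p under 0.05. Nfyc, a subunit of NF-Y, averaged 244 ± 14.7 on Et1 arrays and 353 ± 30.7 on control arrays (SD, n = 3 each; -0.53), and Lin37, a subunit of MuvB, 174 ± 25.8 on Et1 arrays and 131 ± 2.15 on control arrays (SD, n = 3 each; 0.39). E2f1 stood at 0.45 and E2f4 at -0.56, with SEs of 0.26 and 0.50.

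For S phase, of 43 genes of DNA replication, 16 had lower and 27 higher means, with a median of 0.10, and limma called 0 of 42 tested, with 3 lower and 2 higher at an unadjusted p under 0.05. Cdt1, which licenses replication origins and is destroyed in S phase, averaged 876 ± 96.9 on Et1 arrays and 584 ± 77.4 on control arrays (SD, n = 3 each; 0.59). Rrm1, a subunit of ribonucleotide reductase, stood at -0.45, Dbf4, the activator of the Cdc7 kinase, at -0.52, and Chaf1b, a chromatin assembly factor, at 0.50. The difference between the medians of this list and the mitotic genes was not tested.

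**Figure D5:**
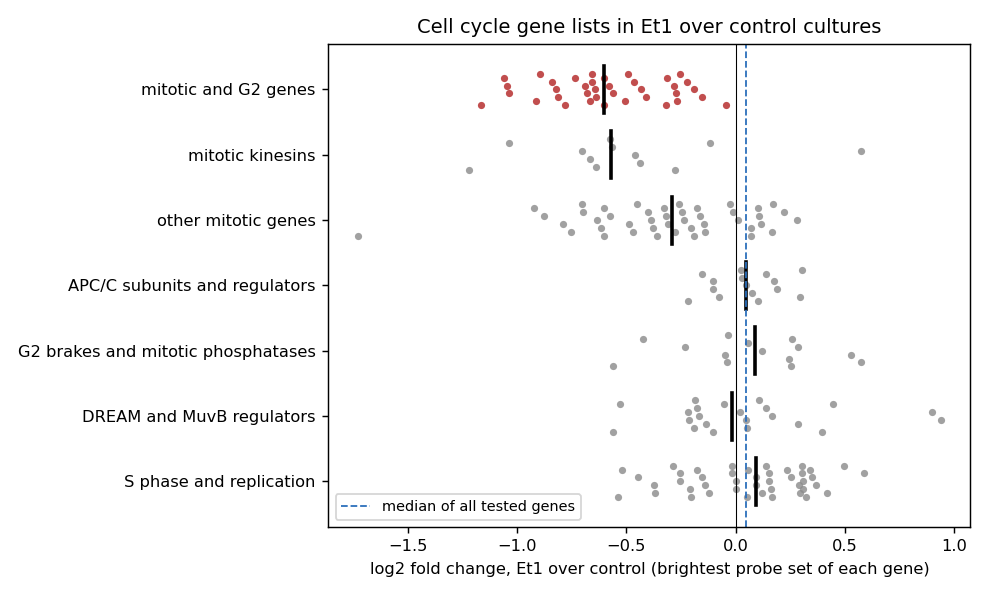
Log2 fold change, Et1 over control, of single genes (points, brightest probe set) in the 37 mitotic and G2 genes (red) and 6 other cell cycle lists (grey). Black bars are medians and the dashed line is the median of all tested genes, 0.05. The medians of the mitotic genes and kinesins lie at -0.60 and -0.57, and those of the 4 lists at the bottom between -0.02 and 0.10.

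Markers of cell type were read on the same arrays. All 12 fibroblast markers had probe sets and 11 passed the filter, all but Lum. The median log2 fold change of the 12 was -0.40. Pdgfrb, a growth factor receptor, stood at -1.14 (SE 0.20, limma adjusted p = 0.0615) with no overlap between the groups, Col3a1 at -1.26 and Thy1 at -1.18, while Vim stood at 0.02, Col1a2 at -0.43 and S100a4 at -0.26. The summed signal of the 12 was 22882 to 36175 in Et1 and 32114 to 47304 in control cultures, and 0 were called by limma. Of the 8 lists for other cells, 4 had sums that did not overlap between the groups. The adipocyte sum was 156 to 207 in Et1 cultures and 348 to 462 in control cultures, over 4 of 6 genes, with Fabp4 called lower and Adipoq and Lep below the filter. The Schwann or neural sum was 233 to 257 in Et1 cultures and 291 to 319 in control cultures, over 4 of 6 genes. The endothelial sum was 158 to 241 in Et1 cultures and 123 to 157 in control cultures, over 8 of 8 genes. Of these only Cdh5 and Kdr passed the filter, with means of 48.5 and 60.9 in Et1 cultures and 37.5 and 37.8 in control cultures. Below it, Tek, Emcn and Esam had means of 26.0, 29.7 and 32.6 in Et1 cultures and 6.85, 18.4 and 23.3 in control cultures, and Pecam1, Tie1 and Vwf 8.76, 2.25 and 1.66 in Et1 cultures and 6.56, 2.52 and 1.99 in control cultures. The skeletal muscle sum was 192 to 255 in Et1 cultures and 172 to 186 in control cultures, over 6 of 6 genes, with Ckm alone above the filter. The sums of the keratinocyte, melanocyte, leukocyte and smooth muscle lists overlapped. Acta2, at means of 9356 in Et1 and 8315 in control cultures, made up most of the smooth muscle sum. Of the 7 genes of that list, Cnn1 stood at -1.16 (limma adjusted p = 0.051) and Myh11 at -0.73, both with no overlap. Mcam stood at -1.22 with overlap. Cspg4, Des, Rgs5 and Acta2 stood at -0.27, -0.07, 0.07 and 0.14, all with overlap, and limma called 0 of the 7. The part of other cells in the values of the mitotic genes was not tested.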

How the data were processed

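Total RNA of 3 Et1 and 3 control cultures was hybridised to 1-colour Affymetrix Mouse430_2 arrays. The deposited intensity values are linear signals, 1 per probe set. Per the submitters' processing notes they come from MAS5. No version or scaling target is given in the sources used here. The experiment files hold settings only and were not used for measurements. Each array was scaled to a common 2% trimmed mean. Of 45101 probe sets, 64 are Affymetrix controls; of the other 45037, 34945 carry 1 gene symbol, 932 several and 9160 none in the platform annotation. In place of the 4 zeros, the lowest positive signal on the same array was used. The 22519 probe sets at or above the median mean signal were tested with limma 3.58.1 in R 4.3.3 (lmFit, eBayes with an intensity trend) on log2 signals, with Benjamini-Hochberg adjustment over all of them and a threshold of 0.05. The number of arrays limits the precision. The code was tested on simulated data.

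Each gene was read from its brightest probe set with 1 symbol. All members may be named; of each other list, at most the 4 genes with the smallest unadjusted p, and any called gene. Named beyond this rule, after their values were seen, are probe sets of members and single markers. The members, the lists and the spike-in split were chosen with earlier results of these data known. Alternatives covered the normalization, filter, offset, variance trend, probe set choice, replicate and spike-in blocks, and each array left out. Promoter sequences are from RefSeq, build GRCm38.p6.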

Additional observations from a re-analysis of the deposited data

How the results depend on the processing

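The members' direction held under most settings and their calls did not. Between 35 and 37 of the genes had lower means under every setting run, and the median log2 fold change ran from -0.68 to -0.50, with -0.53 to -0.66 under the spike-in block without an array. Members called lower by limma were 1 with quantile normalization, median centring, no filter, the 75th percentile filter, 50 added, no _x_at or _s_at probe sets (Prc1 in place of Cdc20) and the mean of the probe sets per gene. They were 0 without the intensity trend, 12 with the replicate block, 19 with the spike-in block and 0 to 2 without each array. With the spike-in block and an array left out, chosen after seeing the data, they were 8 to 28 (8, 8, 16 and 28). Et1 replicate 2 and control replicate 3 were not left out there, as each is the only array of its group in its spike-in set. Over all probe sets, 78 calls became 44 with median centring (37 lower and 7 higher, against 56 and 22). They became 40 with no filter, 46 with probe set means and 7 without the trend. They became 567 and 868 with the replicate and spike-in block, and 4 to 229 without each array. With the spike-in block and an array left out they were 419 to 1687. The labels do not say whether equal replicate numbers mark paired cultures. Correlations of deviations between Et1 and control arrays of equal number were -0.12, 0.44 and 0.45. Et1 replicate 1 correlated best with control replicate 3 (0.26). The pairs with positive values here also shared a spike-in set, so these values cannot decide whether the cultures were paired. The sign turned for Cenpa (0.049) and Racgap1 (0.16) with probe set means and for Foxm1 (0.063) with the spike-in block without control replicate 2. Without 1 array, Incenp ran from -0.39 to 0.090, Cdca8 from -0.26 to 0.25, Cdc25b from -0.38 to 0.028 and Foxm1 from -0.44 to 0.00031. Depth is no measure on these arrays, and low signals limit the dim probe sets. The cause was not tested.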
